A study of Apis mellifera with 6 samples.

Results

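Among the gene models measured in the hypopharyngeal gland of worker honeybees (Apis mellifera), 82 of 10704 rose in 2 steps, from glands of bees on honey alone, to glands of bees that also had pollen, to glands of bees that had pollen and a laying queen. They were chosen by the measured values themselves. Each library's fragment counts were divided by a size factor, the median ratio of its counts to the geometric mean over libraries, to give scaled fragments. A model was kept when its lowest Pollen library was at least 1.5 times its highest Honey library, and its lowest Brood library at least 1.5 times its highest Pollen library. Models were eligible when they had a gene number as ID, fewer than 10000 fragments in every library and a group mean of 30 or more scaled fragments in at least 1 group. A further model, gene8632, was left out by name. There were 5018 eligible models, so the members were 1.63% of them. Because these values chose the members, the steps are given as a description and carry no test.

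The hypopharyngeal gland is a paired gland in the head of worker bees. In nurse bees it secretes the protein part of the food given to larvae, and pollen is the protein source of the colony. Pheromones from brood are known to act on nurse bees and their glands. The gland is at its largest in nurses and is reworked for enzyme secretion when bees turn to foraging. The files give each model a number and a position but no gene name. None of the 10704 IDs matched the reference table of 12398 genes, so no member is given a name or a role here, and the labelled gland could not be checked against marker genes.

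The study sequenced RNA from 6 colonies, 2 in each of 3 groups, with 1 library a colony. Honey colonies were fed honey with the queen caged, Pollen colonies were fed honey and plentiful rape pollen with the queen caged, and Brood colonies had the same food with the queen free to lay. Caging was meant to reduce brood step by step, and how much brood was left, or how many glands went into a library, was not given in the sources used here. An age of 9 days stands in the series text for all bees. The sample labels put Pollen 1 at day 9 and Pollen 2 at day 10, Honey 1 at day 11 and Honey 2 at day 12, Brood 1 at day 13 and Brood 2 at day 14. The label ages rise steadily in the order of the samples, and which statement of age holds cannot be told here. By those labels Pollen bees were the youngest and Brood bees the oldest. If the labels hold, age and group cannot be told apart. In whole glands, more cells of a type and more RNA per cell cannot be told apart either.

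Libraries held 2764870 to 4153354 counted fragments, and size factors ran from 0.692 in Brood 1 to 2.02 in Honey 1. The 10 most abundant models took 26.8% and 28.0% of Honey fragments, 53.6% and 49.9% of Pollen fragments and 66.9% and 69.1% of Brood fragments. A size factor sets the level of the typical model equal between libraries, so a scaled value is relative to that model. A count of 3 fragments, taken here as an approximate upper limit for a count of 0, was 1.48 to 4.34 scaled fragments. This covers counting error only.

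Over the 82 members, the median group mean was 24.2 scaled fragments for Honey, 66.2 for Pollen and 222 for Brood. The median step was 2.24-fold from Honey to Pollen and 2.58-fold from Pollen to Brood, and the median of the whole rise was 5.58-fold. Over all eligible models the same medians were 0.945-fold, 0.891-fold and 0.878-fold. The step to Brood was the larger for 54 members and the step to Pollen for 28. There were 30 members that rose under 5-fold from Honey to Brood, 29 that rose 5-fold to under 10-fold, and 23 that rose 10-fold or more. Of those 23, 8 rose 100-fold or more, but only 2 of the 8 had 10 or more fragments in both Honey libraries. Steps of 3-fold or more on both sides were seen in 20 members. The Honey mean was under 30 scaled fragments in 44 members, and both the Honey and the Pollen means were under 30 in 24, so that these 24 were eligible through Brood alone.

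**Figure D1:**
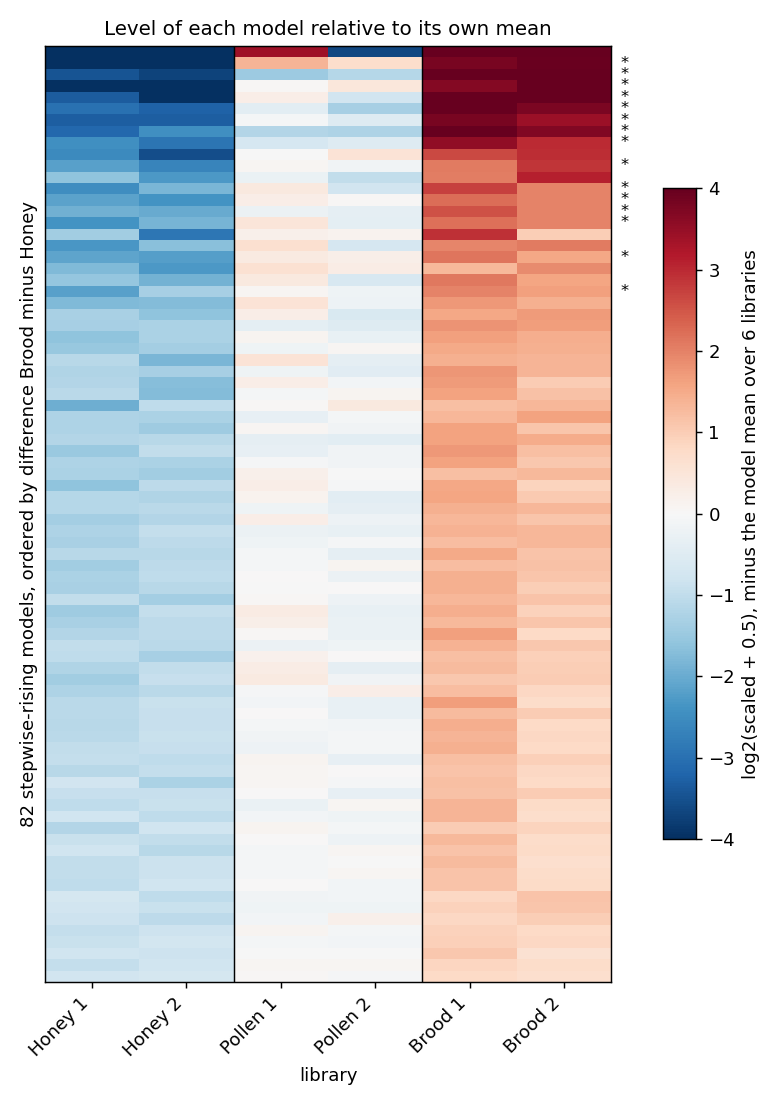
Heat map of the 82 members (rows, ordered by the rise from Honey to Brood) in the 6 libraries (columns), coloured by log2(scaled fragments + 0.5) minus the model's own mean over the libraries, with colours capped at 4 on either side and an asterisk on the 15 models that met the rule under every scaling tried. The rise is steep in the top rows and close to the 1.5-fold limits in the lower ones, and the top row is gene8626, with 196 and 1.00 scaled fragments in Pollen 1 and 2.

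By the deposited FPKM, the median member was near the median of eligible models on honey and above it with brood. FPKM is a level per length, but its divisor was not model length alone, so levels of different models compare only roughly. In Honey 1, gene6779 (319 bases) had 2189 FPKM at 1085 scaled fragments. There gene3794 (315 bases) had 279 FPKM at 282 scaled fragments. Between libraries FPKM followed the authors' normalized counts and not library totals. The median group mean of the members was 6.17 FPKM in Honey, against 7.02 for eligible models, 16.5 in Pollen, against 7.36, and 61.4 in Brood, against 7.75. The number of members above the median of eligible models was 39 in Honey, 61 in Pollen and 81 in Brood. The rule fixes this direction. Members covered a wide range in Brood, from 4.08 to 18502 FPKM.

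A group of 15 members met the rule under every scaling tried, and their values come first. The other scalings were edgeR's TMM factors, library totals, removal of each library's trend over model length, and the deposited FPKM, which is close to size factor scaling. TMM factors kept all 82 members and FPKM kept 75. The group was thus set by library totals, which kept 16, and by removal of the length trend, which kept 25. It was picked after its values were seen. In these 15 the step was at least 3.22-fold to Pollen and at least 3.03-fold to Brood, leaving out 1 model with no fragments in Honey for the step to Pollen.

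The member with the highest Brood mean in scaled fragments was gene10590, on linkage group 14 at 5300475 to 5305445 and 1555 bases long. It had 446 and 375 scaled fragments in Honey, 2358 and 2035 in Pollen, then 9194 and 7781 in Brood (libraries 1 and 2 of each group). Its steps were 5.35-fold and 3.86-fold. Its level went from 65.5 ± 9.14 FPKM in Honey to 415 ± 37.3 in Pollen, then 1916 ± 294 in Brood (± SD, n = 2 libraries a group). It shares 3483 bases with gene10589 on the opposite strand, which went up 1.72-fold and 2.63-fold. The strand setting of the counting was not given in the sources used here, so fragments of the pair may not be separable.

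The member gene13371 had the largest step to Pollen among members with 10 or more fragments in both Honey libraries. It lies on an unplaced scaffold at 4807 to 5619. Its scaled fragments were 24.7 and 9.10 in Honey, 1187 and 749 in Pollen, then 6457 and 7107 in Brood. The Honey libraries had 50 and 10 fragments and differed 2.72-fold after scaling, and 1131 and 751 fragments were counted in Pollen. The size of the first step therefore rests in part on few fragments in Honey 2. The steps were 57.2-fold to Pollen and 7.0-fold to Brood. Its neighbour gene13370, 2903 bases upstream on the same strand, passed the 10000 fragment ceiling and so could not be a member. That model had 124 and 61 fragments in Honey, 10544 and 9634 in Pollen, and 181409 and 204021 in Brood.

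In gene8969 the step to Brood was much the larger. The model spans 11123138 to 11132857 on linkage group 11 and is 3448 bases long. It had 11.9 and 10.0 scaled fragments in Honey, 49.3 and 61.9 in Pollen, then 3579.5 and 4488 in Brood. Honey and Pollen were 5.08-fold apart and Pollen and Brood 72.6-fold apart, the widest step to Brood of all members with 10 or more fragments in both Honey libraries. The model beside it, gene8970, did not share the rise, with 675 and 786 scaled fragments in Honey, 793 and 765 in Pollen, then 438 and 597 in Brood.

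A few more members went from few fragments on honey to high levels with brood. On linkage group 4 at 11134108 to 11147200, gene3822 had 12.4 and 5.46 scaled fragments in Honey, 155 and 74.8 in Pollen, then 2201 and 2322 in Brood. Pollen 1 was 2.08 times Pollen 2, yet both lay well above Honey and far below Brood. The steps of gene3822 were 12.9-fold and 19.7-fold. On an unplaced scaffold, gene12883 at 2151 to 3425 had 6.93 and 6.37 in Honey, 133 and 176 in Pollen, then 1636 and 2255 in Brood, with steps of 23.2-fold and 12.6-fold. On linkage group 13 at 5425826 to 5428133, gene10213 had 8.91 and 7.28 in Honey, 54.6 and 28.9 in Pollen, then 1363 and 998 in Brood. The Pollen libraries of gene10213 differed 1.89-fold, and its steps were 5.16-fold and 28.3-fold. All 3 had under 10 fragments in Honey 2, so the size of their first step rests on few fragments.

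Another 3 of the 15 had more than 10 fragments in both Honey libraries. The longest member, gene11279, covers 4714423 to 4782420 on linkage group 15 and is 5583 bases long. It had 68.3 and 49.1 scaled fragments in Honey, 325 and 281 in Pollen, then 1312 and 2239 in Brood, with steps of 5.17-fold and 5.85-fold. The Brood libraries of gene11279 differed 1.71-fold, less than the step. For gene7315, on linkage group 9 at 5536139 to 5555921, the values were 105 and 153 in Honey, 776 and 425 in Pollen, then 2539 and 2195 in Brood. It rose 4.66-fold and 3.94-fold. Overlapping gene7315 are gene7316 on the same strand, at 0.603-fold and 2.14-fold, and gene7313 on the opposite strand, at 1.42-fold and 0.0515-fold. The last ratio rests on few fragments, 19 and 32 in Pollen and 0 and 2 in Brood. For gene10024, on linkage group 13 at 1520871 to 1522669, the values were 52.0 and 48.2 in Honey, 169 and 154 in Pollen, then 1168 and 777 in Brood, with steps of 3.22-fold and 6.03-fold.

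The remaining 6 of the 15 had lower counts and are given as raw fragments. The member gene8641, on linkage group 11 at 2624895 to 2628349, was covered by 3 and 3 fragments in Honey, 7 and 7 in Pollen, then 234 and 171 in Brood. The ratio of Pollen to Honey was 3.72 (95% interval 1.34 to 11.8) by summed counts, where the interval covers counting error only, and that of Brood to Honey was 146 (95% interval 66.6 to 401). Most of its rise lay between Pollen and Brood. For gene965, on linkage group 1 at 14555498 to 14557356, fragments were 3 and 1 in Honey, 6 and 7 in Pollen, then 87 and 64 in Brood, and the ratio of Brood to Honey was 81.7 (95% interval 31.3 to 304). Fragments of gene1873, on linkage group 2 at 5249656 to 5251242, were 9 and 8 in Honey, 34 and 16 in Pollen, then 127 and 83 in Brood. In gene8480, on linkage group 11 at 380717 to 383260, they were 11 and 11 in Honey, 26 and 23 in Pollen, then 72 and 62 in Brood. In gene9741, on linkage group 12 at 8143318 to 8146595, they were 10 and 5 in Honey, 28 and 27 in Pollen, then 71 and 51 in Brood. These last 3 had steps of 3.03-fold to 5.93-fold on either side. At gene4715, on linkage group 5 at 13731252 to 13736726, neither Honey library had a fragment, Pollen had 4 and 3, and Brood had 47 and 39. Against 3 fragments summed over both Honey libraries, the counted fragments of gene4715 were 3.72-fold higher in Pollen and 62.1-fold higher in Brood. These ratios take the Pollen and Brood counts as exact and leave out their counting error, so they are not lower limits.

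**Figure D2:**
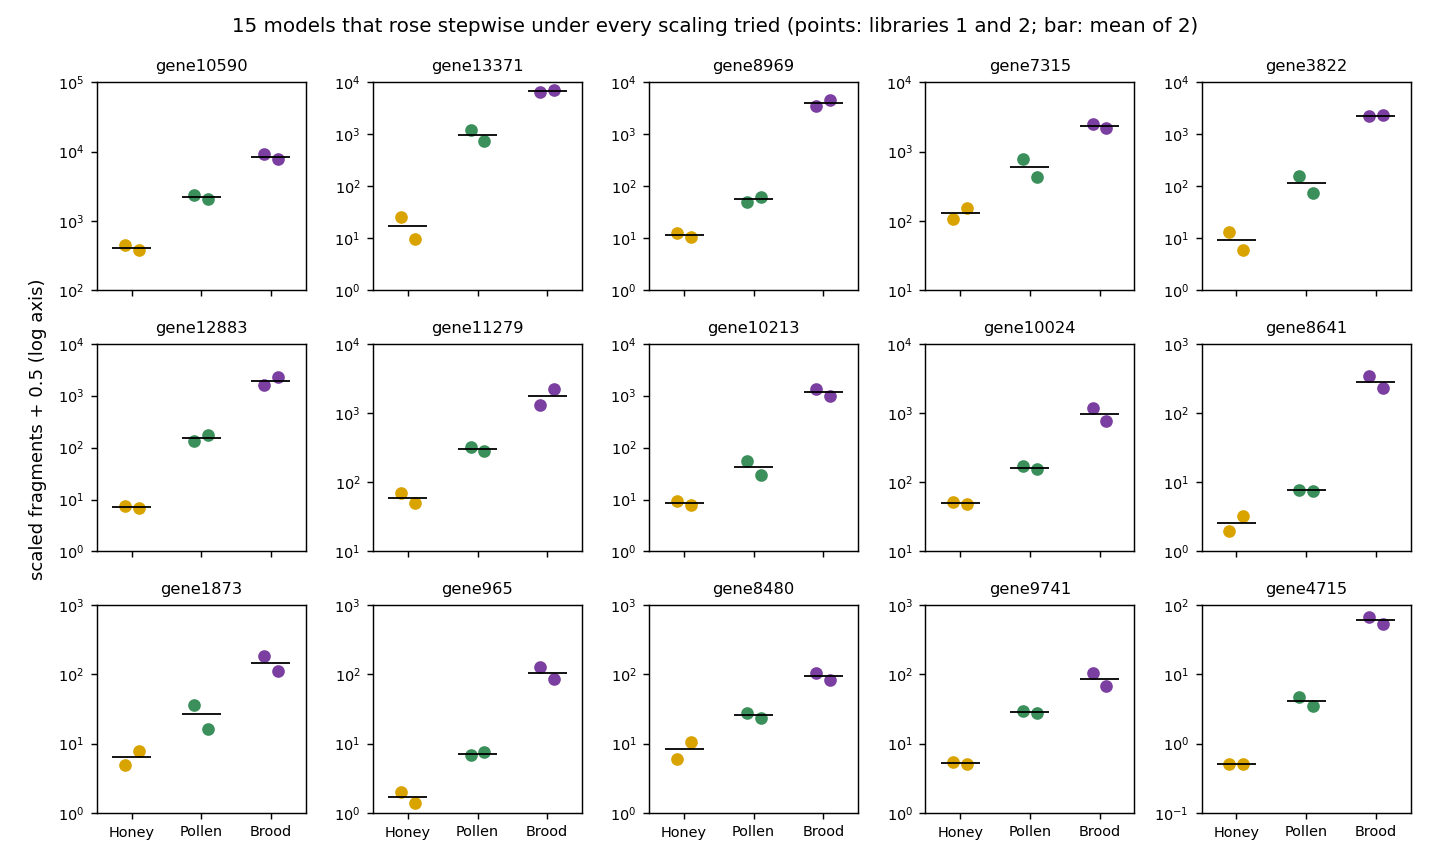
Scaled fragments plus 0.5 (log axis, a separate range in each panel) of the 15 members that met the rule under every scaling tried, with a point for each library and a bar at the mean of 2 libraries. The Honey, Pollen and Brood points do not overlap, as the rule requires, and gene4715 has no fragments in Honey.

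A further 6 of the members with high counts in every library rose 4.10-fold to 8.13-fold from Honey to Brood. On linkage group 8 at 7857552 to 7858262, gene6779 is only 319 bases long and had the highest FPKM of all members. It was at 2403 ± 303 FPKM in Honey, 4721 ± 421 in Pollen, then 18502 ± 1466 in Brood (± SD, n = 2 libraries a group). Its scaled fragments were 1085 and 1311 in Honey, 2155 and 2054 in Pollen, then 6734 and 6468 in Brood. The rule keeps the groups apart, and replicates differed by less than the steps of 1.76-fold and 3.14-fold. The next model downstream, gene6780 at 7859645 to 7860101, had too many fragments to be a member and rose 2.38-fold and 2.96-fold. On linkage group 1 at 1605845 to 1635054, gene90 had 1501 and 1680.0 scaled fragments in Honey, 3477 and 3305 in Pollen, then 7266 and 5763 in Brood, and steps of 2.13-fold and 1.92-fold. On linkage group 8 at 12664588 to 12666144, gene7012 had 858 and 1013 in Honey, 2449 and 1566 in Pollen, then 4811 and 3935 in Brood, with Pollen 1 well above Pollen 2. Similar in size were gene3000, on linkage group 3 at 9595328 to 9596613, with 916 and 1017 in Honey, 1983 and 1578 in Pollen, then 4714 and 3961 in Brood, and gene3500-2, on linkage group 4 at 4835055 to 4837857, with 515 and 614 in Honey, 1259 and 1062 in Pollen, then 3357 and 2681 in Brood. Another model, gene3500-3, lies inside gene3500-2 on the same strand and rose 1.91-fold and 3.16-fold, and the counting could split fragments between them. In gene3794, on linkage group 4 at 10559548 to 10560441, the values were 282 and 295 in Honey, 530.0 and 496 in Pollen, then 2438 and 2251 in Brood, so its step to Brood, 4.57-fold, was much the larger. By library totals, the step to Pollen of these 6 members was 1.02-fold in gene6779, the smallest, and 1.23-fold in gene90, the largest. With each library's trend over model length removed, only gene90 of the 6 met the rule, with steps of 2.53-fold and 4.08-fold. In the others the step to Pollen was then 1.17-fold (gene6779) to 1.69-fold (gene7012). Their step to Brood was 1.19-fold (gene7012) to 2.15-fold (gene3794).

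The largest step to Pollen after that of gene13371, among members with 10 or more fragments in both Honey libraries, was that of gene129 on linkage group 1 at 1938025 to 1940754. It had 18.3 and 12.7 scaled fragments in Honey, 97.6 and 78.8 in Pollen, then 158 and 238 in Brood, so that the step to Pollen, 5.68-fold, exceeded the step to Brood, 2.24-fold.

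Members lay on all 16 linkage groups, with 9 on linkage group 11, 11 on linkage group 1, 8 on linkage group 8 and 6 on unplaced scaffolds. Members made up 2.19% of eligible models on linkage group 11 and 0.350% on linkage group 3, the highest and the lowest share. There were 10 members within 20 kb of another member, in 5 pairs, or 12.2%, and 6.04% of the other eligible models lay as close to a member. No test was made of this difference. The pair gene88 and gene90 lies on linkage group 1 with 253 bases between them on the plus strand. The smaller of them, gene88 at 1601229 to 1605591, had 21.3 and 16.4 scaled fragments in Honey, 82.9 and 39.9 in Pollen, then 273 and 187 in Brood. Its step to Pollen, 3.26-fold, and to Brood, 3.75-fold, were both larger than those of gene90. On linkage group 13, gene10023 at 1517472 to 1519208 lies 1662 bases before gene10024. It had 13.4 and 13.7 in Honey, 68.2 and 40.9 in Pollen, then 156 and 126 in Brood, and both models overlap gene10022 on the opposite strand, which was 1.31-fold and 1.53-fold higher over the same steps. The pair gene12826 and gene12828 shares an unplaced scaffold. They had 8.41 and 11.8 in Honey, 29.4 and 19.0 in Pollen, then 65.0 and 45.4 in Brood at 32660 to 33268, and 65.8 and 60.1 in Honey, 183 and 158 in Pollen, then 368 and 393 in Brood at 36496 to 38676.

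A further pair lies on linkage group 4, where gene3825 at 11154612 to 11156196 follows gene3822. It had 7 and 1 fragments in Honey, 11 and 11 in Pollen, then 54 and 15 in Brood, and its Brood libraries differed 3.90-fold after scaling, the most of any member. The lower Brood library was above both Pollen libraries, as the rule requires. The last pair, gene8641 and gene8642, lies on linkage group 11 downstream of a run of very abundant models that the ceiling keeps out, gene8627, gene8629 and gene8636 among them. The member gene8642, at 2632487 to 2644204, was covered by 1 and 0 fragments in Honey, 5 and 8 in Pollen, then 25 and 34 in Brood, and the ratio of Pollen to Honey was 20.7 (95% interval 3.12 to 882). At the other end of that run, gene8626 at 2554644 to 2560104 had 1 and 0 in Honey, 187 and 1 in Pollen, then 457 and 341 in Brood. It lies 3457 bases before gene8627, which had 716 and 235 fragments in Honey, 75428 and 29141 in Pollen, and 407382 and 619743 in Brood. With 187 fragments in Pollen 1 and 1 in Pollen 2, its step to Pollen rested on 1 library. The ratio of summed counts was 300 (95% interval 53.2 to 11911) for Pollen to Honey. How fragments that align to more than 1 place were counted was not given in the sources used here, so these low models beside abundant ones are uncertain.

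**Figure D3:**
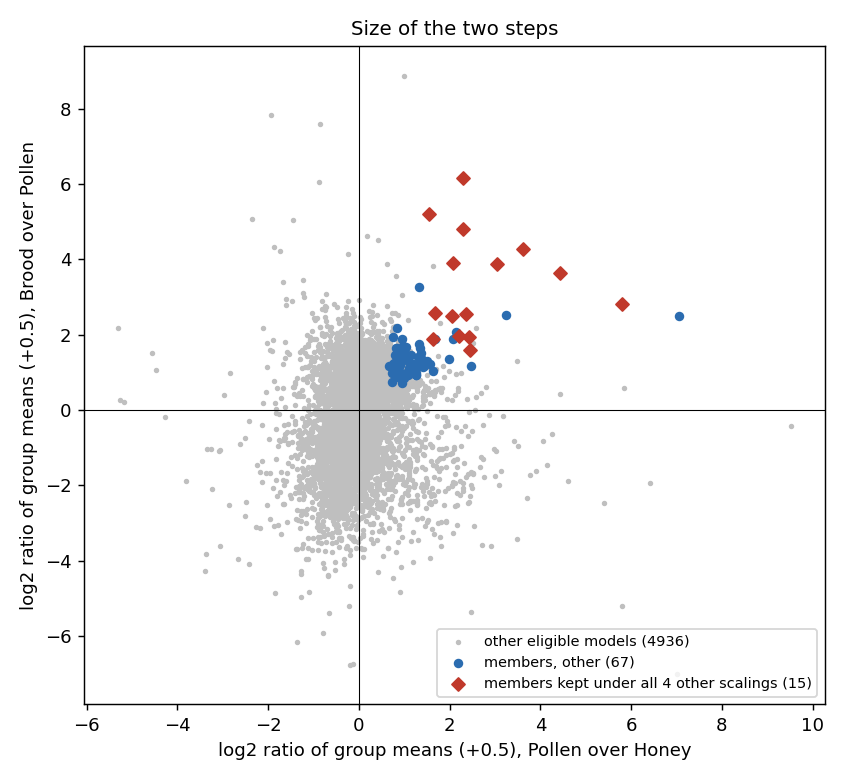
Step from Honey to Pollen (horizontal axis) against step from Pollen to Brood (vertical axis), as log2 ratios of group means plus 0.5, for 5018 eligible models, with 67 members as blue points and the 15 that met the rule under every scaling tried as red diamonds. Most blue points sit near the corner set by the 1.5-fold limits and the red ones spread outwards, and both axes use the Pollen libraries, with opposite sign, so the cloud's shape is no result.

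Most members were short models. Their median length was 893.5 bases, against 2123.5 for eligible models, and ran from 270 bases, in gene11566, to 5583, in gene11279. Of the length quintiles of eligible models, the shortest, up to 1056 bases, held 49 members, and the longest held 1. In all, 86.6% of members were in the 2 shortest quintiles, which hold 40.0% of eligible models. The steps of all eligible models moved with length in the same direction. The median log2 step to Pollen was 0.33 in the shortest quintile and -0.34 in the longest, and the median log2 step to Brood was 0.90 and -1.56. Members of the shortest quintile had median log2 steps of 1.06 and 1.31. With each library's trend over length removed, 25 of the 82 still met the rule, and the median log2 step of the members went from 1.16 to 0.85 for Pollen and from 1.37 to 0.60 for Brood. All 82 stayed above 0 in the step to Pollen and 78 in the step to Brood. The shortest member, gene11566 on linkage group 15 at 8221874 to 8222488, had 41.1 and 40.0 scaled fragments in Honey, 94.5 and 87.8 in Pollen, then 298 and 204 in Brood, with steps of 2.25-fold and 2.75-fold. With the length trend removed its steps were 1.43-fold and 1.24-fold, and it did not meet the rule. The 15 models named first were longer, with a median of 1555 bases, and 11 of them were in the 2 shortest quintiles. The part of the length trend in the steps of single members was not tested.

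**Figure D4:**
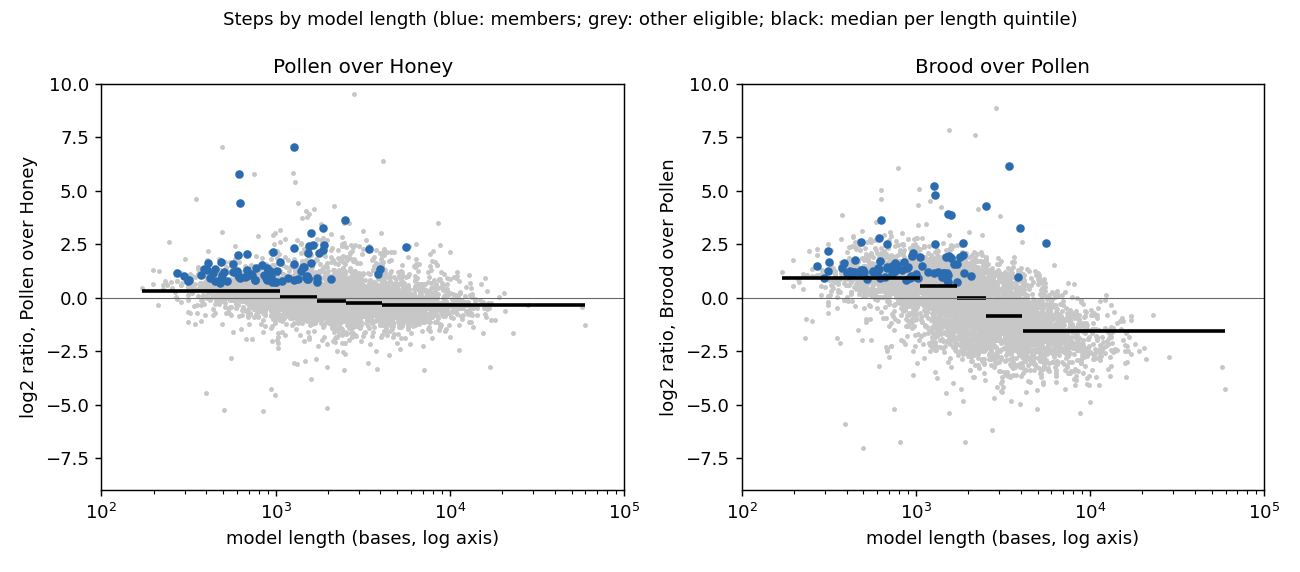
Log2 step to Pollen (left) and to Brood (right) against model length (log axis) for eligible models, with the 82 members in blue, other models in grey and a black line at the median of each length quintile. The black lines drop from 0.33 to -0.34 on the left and from 0.90 to -1.56 on the right, and most members are at the short end.

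The same models were read as a share of all counted fragments, since the most abundant models took a larger share in Pollen and Brood. The summed share of the members was 0.413% ± 0.0377 for Honey, 0.563% ± 0.00982 for Pollen and 1.54% ± 0.0291 for Brood (± SD, n = 2 libraries a group). Per library total, both Brood libraries were above both Pollen libraries for all 82 members. The rule fixes this outcome, because the totals of Pollen and Brood libraries in scaled fragments differ by less than 1.5-fold. It is therefore no check of the step to Brood, and the 26.6% of eligible models with this order is given as a description. Both Brood libraries were above both Honey libraries for all 82, as for 13.6% of eligible models. The rule puts 2 separations between Honey and Brood, so nothing is read from this either. Pollen libraries were both above the Honey libraries for 44 members, as for 5.34% of eligible models. With the order of Brood over Pollen fixed by the rule, those same 44 were ordered in both steps, as were 1.43% of eligible models. In 7 members the Pollen mean was not above the Honey mean. The rule was met with library totals by 16 members. The median log2 step to Pollen of the members was 0.37 with library totals, where that of eligible models was -0.86, and the median step to Brood was 1.07, where that of eligible models was -0.47.

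Single members show how much the scale matters for the step to Pollen. In fragments per 1000000 counted in the library, gene6779 had 532 and 521 in Honey, 494 and 580.3 in Pollen, then 1347 and 1374 in Brood. Its Honey and Pollen values overlap and only Brood stands apart. For gene90 they were 736 and 668 in Honey, 798 and 934 in Pollen, then 1453 and 1224 in Brood, with all 3 groups apart but the step to Pollen only 1.23-fold. For gene10590 they were 219 and 149 in Honey, 541 and 575 in Pollen, then 1839 and 1653 in Brood, with steps of 3.04-fold and 3.13-fold. In gene12883 the steps by library totals were still 13.5-fold and 10.1-fold. Across the 67 members outside the group of 15, the median step by library totals was 1.19-fold to Pollen and 1.93-fold to Brood, and 29 kept both Pollen libraries above both Honey libraries.

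**Figure D5:**
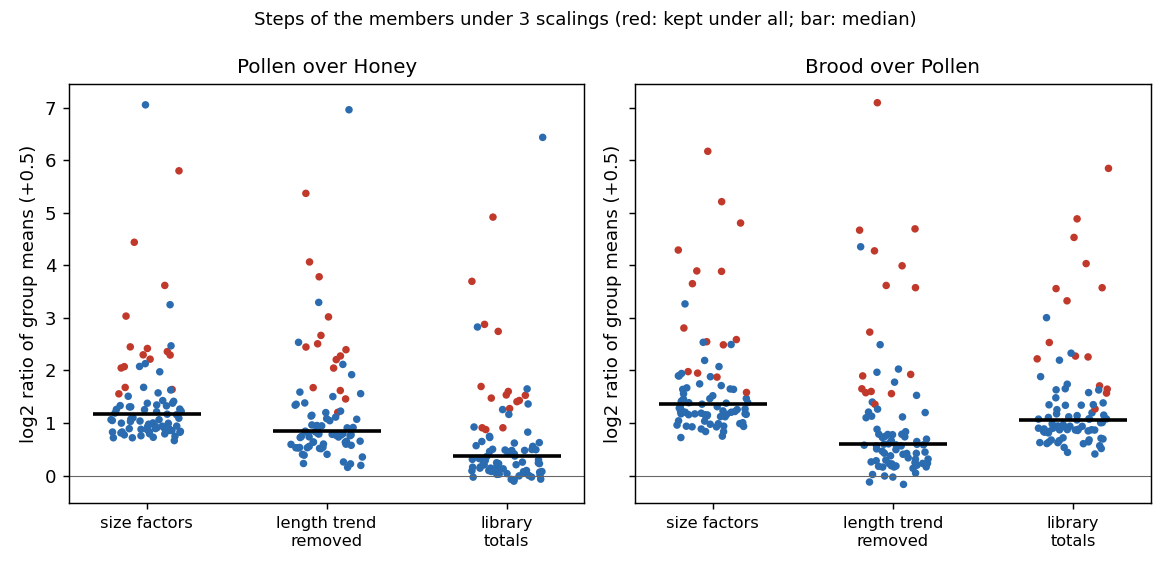
Log2 ratios of group means plus 0.5 of the 82 members, Pollen over Honey (left) and Brood over Pollen (right), with size factors, with the length trend removed and with library totals (red: the 15 models that met the rule under every scaling tried; bar: median). The median goes from 1.16 to 0.85 and 0.37 on the left, and from 1.37 to 0.60 and 1.07 on the right.

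Over all models, counts were compared with edgeR's quasi-likelihood test, and a model was called at an adjusted p (Benjamini-Hochberg) under 0.05. All 82 members passed the filter on low counts. Of them, 37 were called higher in Pollen than in Honey, where 4.32% of 6943 models tested were called higher. All 82 were called higher in Brood than in Pollen, where 22.4% were, and all 82 in Brood than in Honey, where 28.4% were. Called higher in both steps were 37 members and 0.922% of models tested. The rule used these contrasts, so nothing is read from these counts. The 45 members not called in the step to Pollen include gene6779, gene90, gene7012, gene3000 and gene3500-2, with steps of 1.76-fold to 2.15-fold. Without Honey 1 the test called 7 members in both steps, and without Honey 2 it called 13, as it did without Pollen 1. It called 23 without Pollen 2. For the counts without single libraries, no matching count over all models in both steps was taken, so nothing is read from them. With DESeq2, 264 models were called higher in Pollen than in Honey, 29 of them members. Called higher in Brood than in Pollen by DESeq2 were 933 models, 66 of them members.

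Libraries of a group were close for most members. The median ratio of the higher to the lower library was 1.18 in Honey, 1.18 in Pollen and 1.26 in Brood, against 1.24, 1.26 and 1.34 for eligible models. The rule asks for groups that do not overlap, which favours such models. A ratio over 2 was seen for 3 members in Honey, 5 in Pollen and 2 in Brood. The Pollen cases included gene5509 on linkage group 6 at 16649670 to 16660658, with 47.5 and 75.5 scaled fragments in Honey, 372 and 151 in Pollen, then 931 and 1019 in Brood, where steps of 4.24-fold and 3.73-fold were wider than that spread. A Brood case was gene3538 on linkage group 4 at 5838677 to 5849018, with 13.4 and 8.19 in Honey, 34.6 and 21.0 in Pollen, then 175 and 369 in Brood. It shares 813 bases with gene3537 on the opposite strand, which went 19.2-fold up from Pollen to Brood. That rise was from only 5 and 6 fragments to 93 and 61. In all, 18 members overlapped another model on the opposite strand, or 22.0%, against 21.2% of eligible models.

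The edges of the rule were crowded. Both separations were 2 times or more in 22 members, and at least 1 of them was under 1.6 times in 23. Just inside the limit between Honey and Pollen were gene9275, at 1.501, and gene6137, at 1.51. Just outside it, with the step to Brood met, were gene277, at 1.49, and gene11119, at 1.46. At the limit between Pollen and Brood, gene6395 at 1.51 and gene1141 at 1.54 were inside, and gene5562 at 1.49 and gene9331 at 1.48 were outside. The model gene5562 had the steeper rise of these, with 118 and 239 scaled fragments in Honey, 1315 and 387 in Pollen, and 4564 and 1960 in Brood, but its Pollen libraries were far apart.

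Among eligible models, the first separation of the rule was met by 405, or 8.07%, and the second by 955, or 19.0%. Of the 405, 82 rose again in Brood, or 1.63% of eligible models, 200 did not separate, and 123 fell by the same rule. Of the 955, 832 showed no such separation between Honey and Pollen and 41 had fallen. Both steps use the Pollen libraries, so these counts are not compared further.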

How the data were processed

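RNA of hypopharyngeal glands was measured in 6 libraries, 1 a colony, each built with an NEBNext Ultra kit, per the labels' protocols. Per the file headers, the authors deposited a raw fragment count, a normalized count (treated as a signal and not used), FPKM and a model length for each of 10704 models. From the values, counts were whole numbers, and the deposited FPKM followed the normalized counts over length. Its divisor also varied with length, and between models of near-equal length. The aligner, counting tool, strand setting, genome build and annotation are not given in the sources used here. Positions are those of the files, and linkage groups follow their sequence identifiers.

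Size factors were medians of ratios over 4633 models with 10 or more fragments in all libraries. Scaled values are counts divided by them. Steps are ratios of group means, and log2 steps add 0.5 to each mean. Counting intervals are exact binomial (Clopper-Pearson) intervals of summed counts and cover counting error only. The length trend was a lowess curve (span 0.3) of each library's log2 deviation over log2 length. All models were tested with edgeR 4.0.16 in R 4.3.3 (filterByExpr with a minimum count of 10, TMM, 1 fit with 3 group means), tested on simulated data, and with DESeq2 1.42.0. Each library came from its own colony, per the labels' protocols, and that spread is part of the error. Models named by rule were the 3 with the highest Brood mean, the 3 with the largest rise to Brood from Honey and those with the largest steps among members with 10 or more fragments in both Honey libraries, those at the rule's edges, those within 20 kb of another member, the shortest and the longest. Others, such as the 15 models, were chosen after their values were seen. The members and lists were chosen with earlier results of these data known. Marker lists by gene name could not be used.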

Additional observations from a re-analysis of the deposited data

How the results depend on the processing

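The number of models meeting the rule (82) was 16 with library totals, 47 with the length trend removed (25 of them members), 22 with steps of 2 times and 218 with steps midway between 1 and 1.5 times. It stayed within 1.5 times of 82 with TMM scaling (112), a group mean of 10 (101) or 100 (55), no ceiling (88) and the deposited FPKM (111, 75 of them members). Leaving out single libraries gave 101 to 156 models, more than the full rule, and 79 to 82 of the members were among them. Without a Honey or Brood library 1 condition is easier to meet, and without a Pollen library both are. Size factors and eligibility were computed anew each time. The median log2 step to Pollen (1.16) was 0.37 with library totals, 0.85 with the length trend removed and 0.99 with a pseudocount of 5, and 1.02 to 1.19 without single libraries. The median log2 step to Brood (1.37) was 1.07, 0.60 and 1.29 in the same order, and 1.23 to 1.55. Neither median reversed under any of these. The rule does not allow a reversal with the pseudocount, nor one of the step to Brood with library totals. Models called by edgeR in Pollen vs Honey (428) were 795 without a filter and 2448 with library totals (136 higher, 2312 lower), and 134 to 549 without single libraries. In Brood vs Pollen (3359) and Brood vs Honey (3969), 1950 and 2625 were called with the length trend removed, and 2306 to 3146 and 3031 to 4029 without single libraries. With library totals 553 were higher and 2253 lower in Brood vs Pollen, and 305 and 3707 in Brood vs Honey, against 1553 and 1806, and 1971 and 1998. Members called in both steps (37) were 14 with library totals, 19 with the length trend removed, 27 with DESeq2, and 7 to 43 without single libraries, where a lone library is assumed to vary like the other groups. Of these alternatives, the length trend and library totals in edgeR for the counts of models, and the length trend for the members called, were added after seeing the data. The causes were not tested. Outside the main fit, members called in both steps were not set against a count over all models, so nothing is read from those counts. With the replicate number as a block, 435, 3313 and 3901 models were called in the 3 comparisons and 36 members in both steps. Deviations from the group means of libraries with the same number had correlations of -0.094, 0.040 and 0.152. With 2 libraries a group, these values cannot tell whether such libraries shared more than their number. By the sample labels, that number also marks a gap of 1 day. Depth limits the steps of the 17 members with under 10 fragments in a Honey library.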

Other observations

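The ceiling of 10000 fragments kept out 6 models that met both separations. They were gene5402 and gene6780, which rose 2.11-fold and 2.38-fold to Pollen and 1.94-fold and 2.96-fold to Brood, and gene8627, gene8629, gene8636 and gene13370, which rose 105-fold to 191-fold to Pollen and 3.73-fold to 25.9-fold to Brood. Of the 6, gene6780, gene8627 and gene13370 each lie directly beside a member (gene6779, gene8626 and gene13371).

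With each library's trend over length removed, 22 models met the separations that had not met them before. They were long, with a median of 4178.5 bases (2098 to 8879), and 16 were in the 2 longest quintiles of eligible models. As first scaled, their median log2 step was 0.88 to Pollen and 0.60 to Brood, and 5 of them were lower in Brood than in Pollen.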
